A study of Mus musculus with 8 samples.

Results

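The histone genes of mouse spermatogonia were followed in 4 control and 4 Kdm1a-knockout libraries. Members were all genes of the deposited table whose symbol begins with Hist1h to Hist4h, H2af, H3f3 or H1f and whose mean FPKM (fragments counted on a transcript, per kilobase of its length and relative to library size) over the 8 libraries was at least 0.5. The pattern took in 40 of the table's 17589 genes, and 31 of them passed this level. Of these, 19 were clustered genes, 12 were replacement variants (H3f3c and H3f3a-ps2, annotated as processed pseudogenes, among them) and 0 were testis-specific genes. Both groups were C57BL/6 mice carrying the GOF/deltaPE-Oct4/GFP reporter, taken 6 days after birth, and Oct4-GFP positive germ cells were sorted from digested testes. The labels call the groups Control and KDM1A KO, the latter a conditional knockout (Kdm1a-cKO). The Cre line, the deleted exons and the genotype of the controls are not named in the labels. KDM1A is a demethylase of lysine 4 of histone H3. The labels count 4 samples in each group without stating that they are separate animals, so a p-value here weighs the spread among samples that may be technical replicates. Per-library values below are in the order of replicates 1 to 4.

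Histones wrap DNA into nucleosomes, whose core holds H2A, H2B, H3 and H4, with linker histone H1 bound where DNA enters and leaves. The clustered, replication-dependent genes are transcribed in S phase, and their mRNAs normally end in a short stem-loop in place of a poly(A) tail. Replacement variants such as H3.3, H2A.Z and macroH2A come from single, mostly intron-bearing genes with polyadenylated mRNAs, and are put into chromatin outside replication as well. In the male germ line histones are exchanged in steps, first for testis variants and later for transition proteins and protamines. Libraries made with the stranded mRNA kit named in the labels start from poly(A) RNA, so levels of clustered genes here are levels of their polyadenylated or incidentally captured transcripts.

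Kdm1a itself read 53.7, 54.0, 92.0 and 48.1 FPKM across the controls, and the knockout libraries 14.2, 14.1, 17.3 and 14.9, all lower (log2 change -1.92, SE 0.18, limma adjusted p = 7e-05). Inferred depth ranged from 61200000 to 67200000 fragments per control library and from 44900000 to 62700000 per knockout library. Knockout replicate 2 stood apart: it had 1642 transcript entries at 0, against 506 to 734 in the others, and the lowest mean correlation with its own group, 0.965. Germ cell markers dominated every library, with a summed FPKM of 918.0 to 999.7 for controls against 950.9 to 1121 for knockouts, and 2 of the 8 were called higher and 2 lower. Among these, Sycp3, a meiotic gene, averaged 106 and 188 FPKM, and Zbtb16, a gene of undifferentiated spermatogonia, 61.2 and 22.3. Beside the counts of these marker lists, 25.9% of all genes tested were called higher and 11.8% lower. Sertoli markers (1 of 9 tested called higher) summed to 18.96 to 52.06 and 39.54 to 68.69, and endothelial markers (2 of 4 called higher) to 4.003 to 5.762 and 11.82 to 12.5. The called endothelial genes were Pecam1 and Tek, with log2 changes of 1.22 and 1.31. Cdh5 and Kdr were not called, with 0.11 and 0.03, and Emcn, too low to be tested, averaged 0.0865 and 0.556 FPKM. Stromal markers (1 of 5 called lower) summed to 33.8 to 39.53 and 21.2 to 24.25. The called one was Col1a1, at means of 28.7 and 15.6 FPKM. Acta2, Dcn, Myh11 and Pdgfra were not called, with log2 changes of -0.06, -0.07, 0.09 and 0.36. Macrophage markers (2 tested) summed to 1.875 to 2.918 and 1.675 to 3.368 with none called. The single Leydig marker tested, Star, was at 1.237 to 2.162 and 1.227 to 1.832 and was not called. The single erythroid marker tested, Alas2, was called higher, at means of 0.289 and 1.65 FPKM. It passed the level of 0.5 only through the knockout libraries. Hbb-b1, an erythroid marker below that level and not tested, averaged 0.268 and 0.234. Of the markers listed, only 1 of 7 Leydig, 2 of 7 macrophage and leukocyte and 2 of 8 erythroid genes were in the deposited table. The absent ones could not be checked. None of the markers in the table was at 0 in all libraries. The part of these markers in the histone results was not tested.

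The signature of a replication-dependent histone mRNA is its stem-loop, and it was present in many of the transcripts measured. The pattern searched was GG, 2 free bases, CTTTT, 1 free base, AG, 1 free base and GCC, 16 bases in all on the transcript strand. It was found in 20 of 44291 transcripts of the table (0.045%), and 16 of the 20 genes that held it matched the histone pattern. Among the 31 members it was found in 13 clustered genes and in H2afx, a variant gene known to give both a stem-loop and a polyadenylated mRNA. The lines below show it with the bases on either side, from GENCODE M21 transcripts on GRCm38, for H2afx, Hist1h1c and the clustered genes of high level or most often named here; capitals mark the stem-loop.
Hist1h1c: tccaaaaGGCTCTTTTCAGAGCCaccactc
Hist1h2bj: atccaaaGGCTCTTTTCAGAGCCacgcaca
Hist1h2bk: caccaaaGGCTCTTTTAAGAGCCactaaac
Hist1h3a: aaccaaaGGCTCTTTTCAGAGCCacacacg
Hist1h4c: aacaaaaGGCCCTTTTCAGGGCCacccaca
Hist1h4i: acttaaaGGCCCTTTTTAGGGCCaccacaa
H2afx: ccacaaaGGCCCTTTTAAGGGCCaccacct
In all 14 members with the pattern the 6 outer bases on the left could pair with the 6 on the right. The left arm was GGCTCT in 9, among them the H2B, H3 and linker genes shown, and GGCCCT in 5, the H4 genes and H2afx. The annotated transcripts do not end at the stem-loop: Hist1h1c goes on for 840 bases after it, H2afx for 822, Hist1h4i for 330 and Hist1h2bj for 23. No match in a transcript says only that these letters are not in its annotated sequence; the entries of Hist1h4k, Hist1h2bl and Hist1h2bm hold little more than the reading frame.

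Copies of histone genes can be nearly identical, and this bears on which values can be told apart. Fragments that fit several copies are divided among them by Cufflinks, so single members of such a family are uncertain. The window below covers 90 bases of the H3.3 reading frame, bases 298 to 387 counted from the first base of the start codon, in the 4 H3.3 genes; capitals mark differences from H3f3a.
H3f3a: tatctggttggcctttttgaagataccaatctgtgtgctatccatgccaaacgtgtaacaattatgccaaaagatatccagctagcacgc
H3f3a-ps2: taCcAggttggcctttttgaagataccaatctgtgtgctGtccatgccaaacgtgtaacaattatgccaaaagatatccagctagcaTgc
H3f3c: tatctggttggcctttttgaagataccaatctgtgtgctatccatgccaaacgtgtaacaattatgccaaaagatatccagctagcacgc
H3f3b: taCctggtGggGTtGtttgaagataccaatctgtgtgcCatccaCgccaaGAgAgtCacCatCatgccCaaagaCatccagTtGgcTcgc
Over the whole 411-base frame H3f3c differed from H3f3a at 4 bases and H3f3a-ps2 at 5, both annotated as processed pseudogenes. H3f3b, which codes for the same protein, differed at 95, an identity of 76.9%. H3f3a and H3f3b can therefore be told apart from each other by sequence. Their main entries still shared 50.8% and 24.5% of their 50-base windows with other transcripts. For H3f3c and H3f3a-ps2 these shares were 73.8% and 82.0%, against 0% for Hist1h1a and H1f0.

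Of the 31 histone genes, 5 rose in the knockout, 3 fell and 23 were not called, by limma's moderated test on log2(FPKM + 1) with Benjamini-Hochberg adjustment over 15083 genes. Among all genes tested 25.9% rose and 11.8% fell, and for the histone genes these shares were 16.1% and 9.7%. Control and knockout libraries did not overlap in 3 histone genes that lay higher and 3 that lay lower, 19.4% of the members, against 38.5% of all genes. The median log2 change of the members was 0.11 and that of all genes 0.10. The linker genes Hist1h1a, Hist1h1c and H1f0, the H2A.Z gene H2afz and the H4 gene Hist1h4k rose, and the H3.3 genes H3f3a and H3f3b and the H3f3a copy H3f3a-ps2 fell. In a bulk sample fewer cells of a type and less RNA per cell cannot be told apart.

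The balance of higher and lower calls moved with the scaling of the libraries. Median-ratio scaling gave 3 histone genes higher and 6 lower (2951 and 2739 of all genes), and quantile normalization 3 and 7 (2966 and 2913). Removing small RNA genes and scaling the remaining FPKM to equal totals gave 3 and 6 (2651 and 1959). Every later mention of small RNA genes removed means this rescaling. Scaling to equal FPKM totals of all genes, called equal totals below, gave 22 and 0 (10510 and 199). The factors of equal totals ran from 0.9845 to 1.63 for controls and from 0.6466 to 1.021 for knockouts. With small RNA genes removed they ran from 0.9024 to 1.008 and from 0.9309 to 1.325. Equal totals moved the median log2 change of all genes from 0.10 to 0.70, and the other scalings moved it to -0.01 or -0.02. Relative to that median H3f3b was at -0.79 as deposited and at -0.67 with equal totals, H3f3a at -0.46 and -0.34, Hist1h1a at 0.73 and 0.66, H2afz at 0.43 and 0.55, and Hist1h4k at 0.24 and -0.06. Without knockout replicate 2, the library that stood apart, 3 histone genes were called higher and 6 lower: H2afz and Hist1h4k lost their calls, and H3f3c, H2afy and H2afy2 gained calls as lower.

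**Figure D1:**
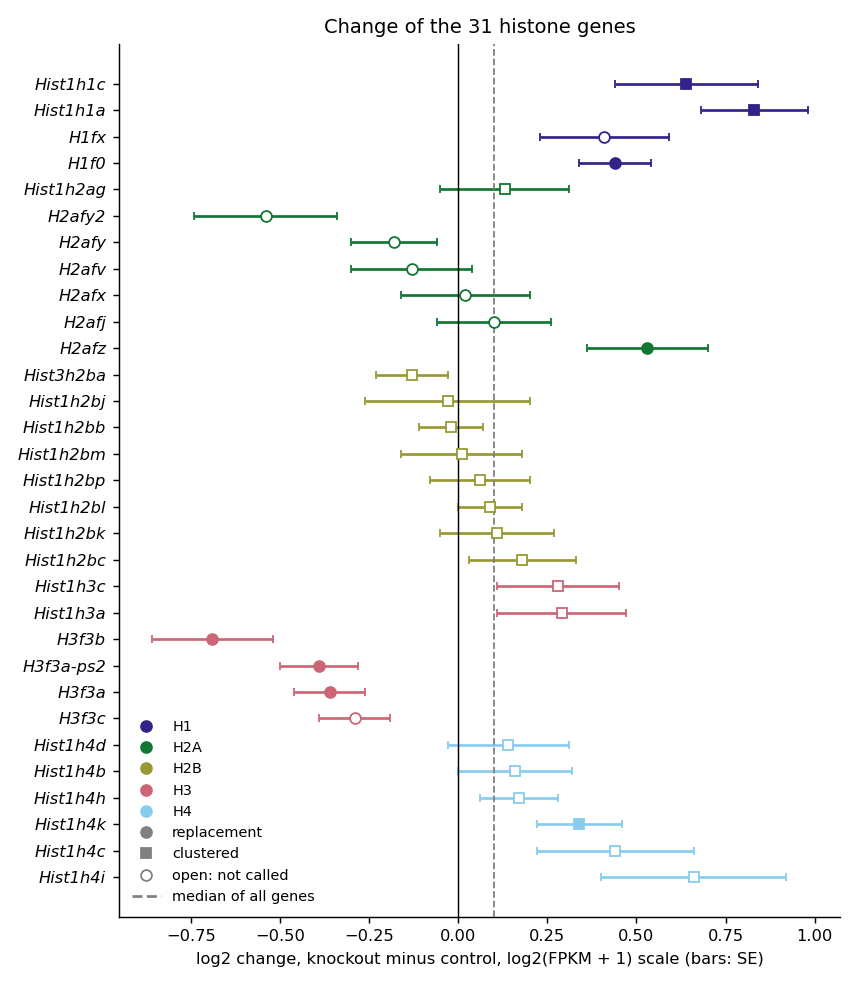
Log2 change, knockout minus control, on the log2(FPKM + 1) scale for the 31 histone genes, ordered by class, with bars for the standard error (n = 4 per group); circles are replacement variants, squares clustered genes, filled symbols called genes, and the dashed line marks the median of all genes tested. Linker genes lie to the right, up to 0.83 for Hist1h1a, and H3.3 genes to the left, down to -0.69 for H3f3b. With equal FPKM totals the H3.3 genes take positive values, none of them called and all below the median of all genes.

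The linker histone H1 binds the nucleosome from outside and compacts the fibre, and its genes gave the largest rise among the members. Hist1h1a codes for H1.1, a subtype known from thymus and early spermatogenic cells. Controls read 2.16, 2.16, 2.27 and 2.37 FPKM and knockouts 3.66, 6.39, 5.37 and 3.98. All 4 knockout libraries lay above all 4 controls, and the controls lay close together. The means were 2.24 ± 0.0989 and 4.85 ± 1.26 (SD, n = 4 each), 2.17-fold higher in the knockout (log2 change 0.83, SE 0.15, limma adjusted p = 0.00213). These levels correspond to 79.5 to 186.8 fragments per library, and Hist1h1a shared no 50-base window with another transcript. It was called higher in all 19 alternative settings, with adjusted p from 1.4e-07 to 0.0101. The gene (ENSMUSG00000049539) has 1 exon and spans 23763666 to 23764406 of chromosome 13 on GRCm38, plus strand.

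H1f0 codes for H1.0, a replacement linker histone known to accumulate in cells that leave the cycle. Controls read 21.7, 18.4, 21.9 and 22.2 FPKM, knockouts 24.6, 31.8, 30.3 and 29.2. The groups did not overlap, knockout replicate 1 lying nearest to the controls. The means were 21.1 ± 1.75 and 29.0 ± 3.10 (SD, n = 4 each), 1.38-fold higher (log2 change 0.44, SE 0.10, limma adjusted p = 0.00735). Of 19 alternatives only rescaling after removal of small RNA genes ended the call (limma adjusted p = 0.053). Hist1h1c, the gene for the widely expressed subtype H1.2, read 0.878, 1.79, 1.004 and 1.39 FPKM across controls and 1.63, 3.93, 2.18 and 2.59 across knockouts. Knockout replicate 1 lay below control replicate 2, so the groups overlapped. The rise was 2.04-fold (log2 change 0.64, SE 0.20, limma adjusted p = 0.0307), and quantile normalization (0.112) or leaving out control replicate 1, 3 or 4 or knockout replicate 3 or 4 ended the call, with adjusted p of 0.0522 to 0.0848. H1fx, the gene for the replacement subtype H1.10, averaged 16.5 ± 0.812 and 23.1 ± 7.37 FPKM (SD, n = 4 each) and was not called (adjusted p = 0.104). Its knockout libraries were spread from 16.2 to 33.3, and without knockout replicate 1 it was called higher (log2 change 0.56, adjusted p = 0.025). An antisense gene, Gm5577, overlaps H1fx on the opposite strand at a mean of 2.40 FPKM. Whether the counting used strand is not stated in the labels.

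The division of FPKM among the 4 H1 members can be read within each library, where scaling cancels. No other clustered H1 gene was in the deposited table, and clustered values count only polyadenylated or incidentally captured transcripts. The shares are therefore not the make-up of all linker mRNA. Clustered genes, Hist1h1a and Hist1h1c, held 7.46%, 10.1%, 7.66% and 9.01% of the summed H1 FPKM of the control libraries, against 11.5%, 13.7%, 12.4% and 11.9% of the knockout libraries. The groups did not overlap, at means of 8.56 ± 1.23% and 12.3 ± 0.962% (SD, n = 4 each), and no test was run on this share. The replacement genes H1f0 and H1fx thus still gave most of the summed FPKM of these members in every library.

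The 2 members with the largest called changes in opposite directions, Hist1h1a and H3f3b, both have textbook promoter letters in RefSeq's promoter table. Below are the 250 bases before the annotated start of each, 5′ to 3′ along the gene, from RefSeq on GRCm38.p6: chr13:23763418-23763667 on the plus strand for Hist1h1a and chr11:116024505-116024754 on the minus strand for H3f3b. Capitals mark the core of the TATA box (TATAAA), the box named for its letters CCAAT and the octamer ATTTGCAT, each searched on both strands.
Hist1h1a: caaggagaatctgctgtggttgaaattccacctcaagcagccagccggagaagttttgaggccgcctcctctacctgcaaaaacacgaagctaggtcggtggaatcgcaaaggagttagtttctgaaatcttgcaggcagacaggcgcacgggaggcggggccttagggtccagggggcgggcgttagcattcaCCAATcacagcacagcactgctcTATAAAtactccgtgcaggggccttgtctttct
H3f3b: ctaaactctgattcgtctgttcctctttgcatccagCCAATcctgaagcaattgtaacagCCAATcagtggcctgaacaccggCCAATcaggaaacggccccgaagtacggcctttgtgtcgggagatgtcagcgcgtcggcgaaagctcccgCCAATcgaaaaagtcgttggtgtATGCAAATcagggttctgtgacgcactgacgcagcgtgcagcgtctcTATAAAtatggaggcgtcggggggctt
A promoter entry was matched for 26 of the 31 members and none for Hist1h2bc, H2afx, Hist1h3a, H3f3a-ps2 and Hist1h2bm. For these counts the whole promoter entry was searched, which is not limited to the 250 bases printed. A gene with several promoter entries was counted if any of them matched. TATAAA was in 9 of the 26, 8 of them clustered genes, against 15.67% of the 27025 genes with a promoter entry. CCAAT was in 18, against 41.06%, and the octamer, a known element of H2B promoters, in 3, Hist1h2bb, Hist1h2bk and H3f3b, against 1.97%. These are matches of letters and not measured sites, and H3f3b shares all of the letters searched with 2 H2B genes that were not called.

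H3.3 is the replacement form of H3 and the main H3 put into chromatin of non-dividing cells and at active genes. All 4 H3.3 genes had negative changes as deposited and under median-ratio, quantile and small-RNA scaling, and 3 of them were called lower as deposited. With equal totals all 4 took positive values, none called and all below the median of all genes. The 4 include the near-copies H3f3c and H3f3a-ps2, whose signal may belong to H3f3a, so they do not count as separate evidence. For H3f3b the controls read 154.3, 129.1, 165.7 and 163.3 FPKM and the knockouts 110.9, 64.6, 101.2 and 108.0. The groups did not overlap, and knockout replicate 2 was the lowest library. The means were 153.1 ± 16.7 and 96.2 ± 21.4 (SD, n = 4 each), 1.59-fold lower in the knockout (log2 change -0.69, SE 0.17, limma adjusted p = 0.0117). Without knockout replicate 2 the log2 change was -0.51 (adjusted p = 0.00269), and with equal totals it was 0.03 (adjusted p = 0.92), against a median of 0.70 over all genes. Nearly all of its signal came from 1 entry, H3f3b-204, annotated as a processed transcript, at 146.1 ± 14.6 and 90.2 ± 20.7 FPKM, while the entry typed as protein-coding was at 0.344 and 0.285. H3f3b (ENSMUSG00000016559) spans 116021912 to 116027962 of chromosome 11 on GRCm38, minus strand.

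H3f3a, the other H3.3 gene, was the most abundant histone mRNA of the controls. Controls read 281.2, 284.1, 346.8 and 306.6 FPKM, knockouts 231.5, 257.5, 237.3 and 220.4. Every knockout library lay below every control library. The means were 304.7 ± 30.3 and 236.7 ± 15.5 (SD, n = 4 each), 1.29-fold lower (log2 change -0.36, SE 0.10, limma adjusted p = 0.0185), and with equal totals the change was 0.36 (adjusted p = 0.199). The call was lost without control replicate 3 (0.057), knockout replicate 3 (0.0505) or knockout replicate 4 (0.058). H3f3a (ENSMUSG00000060743) spans 180800832 to 180813943 of chromosome 1 on GRCm38, minus strand, and the lincRNA gene Gm17275, at a mean of 75.8 FPKM, overlaps it on the opposite strand. Its main entry, H3f3a-207, went from 182.7 ± 6.12 to 139.6 ± 19.0 FPKM.

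The near-copies stood at lower levels. H3f3a-ps2 read 25.9, 26.3, 33.5 and 30.5 FPKM across controls and 20.01, 24.4, 22.6 and 20.2 across knockouts, without overlap (log2 change -0.39, SE 0.11, limma adjusted p = 0.0169; 0.30 with equal totals). H3f3c averaged 22.9 ± 2.79 and 18.5 ± 1.59 FPKM (SD, n = 4 each), and its groups overlapped. It just missed the threshold (log2 change -0.29, adjusted p = 0.0529) and was called lower under median-ratio scaling (0.00455), quantile normalization (0.0092) and small-RNA removal (0.00937) and without control replicate 2 (0.0362) or knockout replicate 2 (0.0213). Given the shared windows printed above, signal of these 2 entries may belong to H3f3a, so the 3 were also summed, an alternative added after seeing the data. The sum was 356.6 ± 36.5 and 277.0 ± 19.1 FPKM (log2 change -0.36, adjusted p = 0.0218). Of the FPKM of H3f3a and H3f3b together, H3f3b made up 33.4 ± 1.98% in controls and 28.8 ± 5.98% in knockouts (SD, n = 4 each), with overlap, and knockout replicate 2 alone was at 20.1%.

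**Figure D2:**
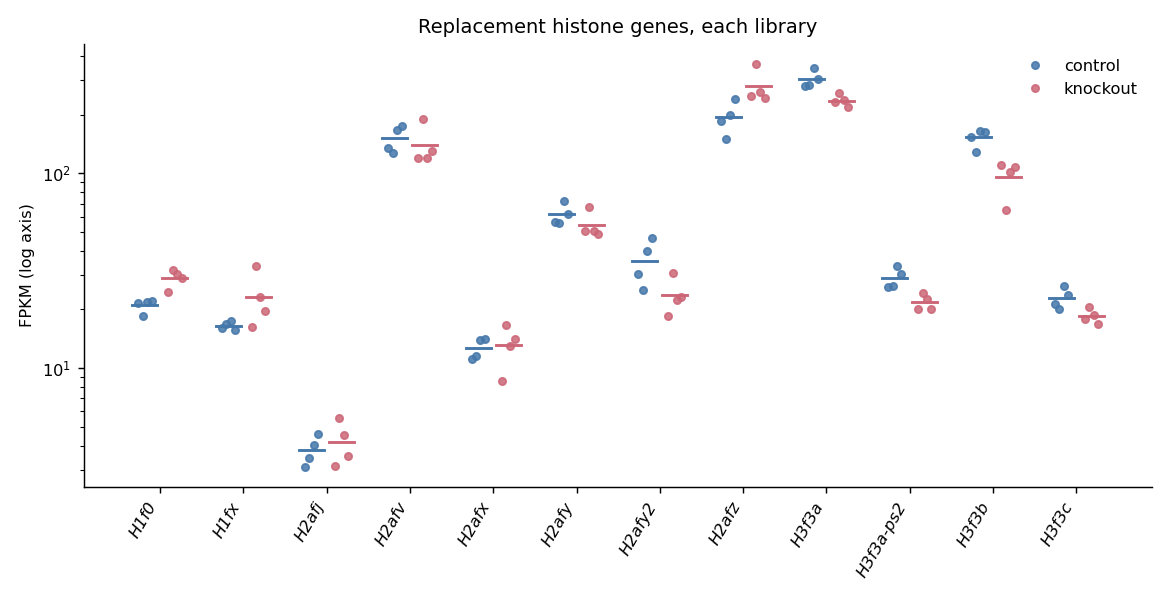
FPKM on a log axis of the 12 replacement histone genes in each library, with points for libraries and horizontal marks for group means (n = 4 per group). The H3.3 genes H3f3a and H3f3b lie lower in all knockout libraries and H1f0 and H2afz higher. With equal FPKM totals the log2 changes of H3f3a and H3f3b were 0.36 and 0.03. Neither was called, and the median of all genes was then 0.70.

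H2A.Z is the H2A variant found around transcription start sites, and 1 of its 2 genes was called. H2afz, coding for H2A.Z.1, read 184.9, 149.7, 199.1 and 242.0 FPKM across controls and 249.6, 364.1, 261.4 and 244.6 across knockouts. The groups did not overlap, but control replicate 4 and knockout replicate 4 nearly met. The means were 193.9 ± 38.2 and 279.9 ± 56.6 (SD, n = 4 each), 1.44-fold higher (log2 change 0.53, SE 0.17, limma adjusted p = 0.037). The call was lost under median-ratio scaling (0.0623) and without control replicate 1 (0.085), 2 (0.0949) or 3 (0.0689) or knockout replicate 2 (0.0501) or 3 (0.0683). H2afv, coding for H2A.Z.2, averaged 151.2 ± 24.0 and 139.6 ± 33.4 FPKM (SD, n = 4 each) and was not called (log2 change -0.13, SE 0.17, adjusted p = 0.585; 0.59 with equal totals, adjusted p = 0.0319).

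The division between the H2A.Z genes was also read within each library. H2afz held 57.9%, 54.1%, 54.3% and 57.9% of the FPKM of H2afz and H2afv across controls, and 67.5%, 65.8%, 68.6% and 65.4% across knockouts. The lowest knockout library lay above the highest control, and knockout replicate 2, at the highest level of both genes, did not stand apart in this share. The means were 56.1 ± 2.15% and 66.8 ± 1.51% (SD, n = 4 each). No test was run on this share, and H2afz shared 33.2% of its 50-base windows with other transcripts. The 2 longest protein-coding entries of H2afz both averaged higher in the knockout, H2afz-201 at 135.5 ± 23.8 and 202.7 ± 53.8 FPKM and H2afz-207 at 19.8 ± 4.73 and 30.5 ± 7.09, with no test run on single entries.

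**Figure D3:**
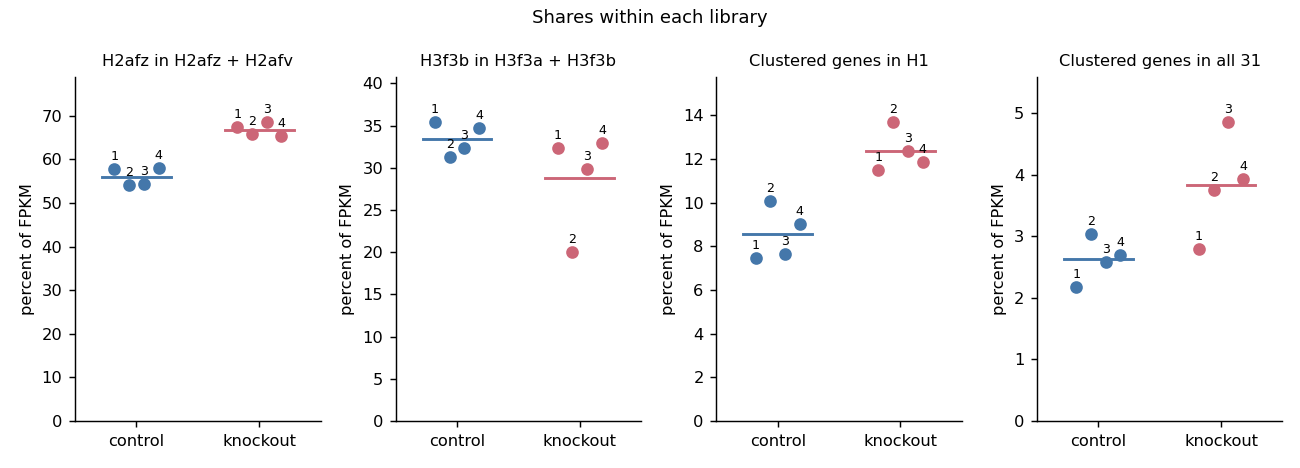
Shares within each library, in percent of FPKM, with points numbered by replicate and horizontal marks for group means (n = 4 per group). The H2afz share of both H2A.Z genes runs from 54.1 to 57.9 for controls and 65.4 to 68.6 for knockouts, the share of clustered genes in H1 from 7.46 to 10.1 and 11.5 to 13.7, and the remaining pair of shares overlaps between groups.

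The other H2A variants were not called as deposited; the macroH2A genes were called lower under 3 other scalings and took positive values with equal totals. H2afy2 codes for macroH2A2, a large H2A with a macro domain enriched on silent chromatin, and read 30.3, 25.1, 39.9 and 46.4 FPKM across controls and 18.6, 30.8, 22.4 and 23.2 across knockouts. Knockout replicate 2 lay among the controls, the other knockout libraries below them. The log2 change was -0.54 (SE 0.20, adjusted p = 0.0608). It was called lower under median-ratio scaling (0.018), quantile normalization (0.0256) and small-RNA removal (0.00869) and without control replicate 2 (0.0265) or knockout replicate 2 (0.0207), and was 0.16 with equal totals. H2afy, for macroH2A1, averaged 61.7 ± 7.68 and 54.3 ± 8.36 FPKM (log2 change -0.18, adjusted p = 0.269) and was called lower under the same 3 scalings and without knockout replicate 2 (-0.28, adjusted p = 0.0353); with equal totals its change was 0.53. H2afx, whose product is phosphorylated at DNA breaks and on the sex chromosomes in meiosis, averaged 12.7 ± 1.595 and 13.1 ± 3.39 FPKM (log2 change 0.02, SE 0.18, adjusted p = 0.955). H2afj, a further single-copy H2A gene, averaged 3.79 ± 0.649 and 4.19 ± 1.08 FPKM (log2 change 0.10, adjusted p = 0.646).

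The 19 clustered genes were low, with mean FPKM from 0.518 to 4.85 and a median of 1.24, against 3.99 to 270.7 for the replacement variants. By limma 3 of the 19 rose and 0 fell, and at an unadjusted p under 0.05 the counts were 4 and 0. The changes of 16 were positive as deposited, of 19 with equal totals and of 8 after quantile normalization. Among the 5401 genes of the same level range 30.8% rose and 10.3% fell. The median log2 change was 0.16 for the clustered genes and 0.15 for genes of that range. Besides the linker genes, the call was Hist1h4k, an H4 gene which read 0.408, 0.854, 0.550 and 0.797 FPKM across controls and 1.18, 1.23, 1.12 and 0.799 across knockouts. Its groups overlapped at control replicate 2 and knockout replicate 4. These values stand for 4.1 to 12.2 fragments per library, 71.5% of its 50-base windows occur in other transcripts, and the call (log2 change 0.34, SE 0.12, limma adjusted p = 0.0461) was lost in 11 of 18 alternatives, among them those without control replicate 1 or 3 or knockout replicate 1, 2 or 3, with adjusted p up to 0.307.

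H4 is a highly conserved histone, and the clustered H4 genes code for the same protein. All 6 H4 members had positive changes as deposited, with a median of 0.26, and 1 was called; after quantile normalization Hist1h4b (-0.01) and Hist1h4d (-0.04) took negative values. The most abundant clustered gene was Hist1h4i, which read 2.41, 3.70, 3.73 and 3.84 FPKM across controls and 3.002, 5.98, 8.33 and 7.81 across knockouts. In the knockout 3 libraries lay above all controls and replicate 1 lay among them. The log2 change was 0.66 (SE 0.26), and the adjusted p was 0.0686, or 0.00315 without knockout replicate 1 (log2 change 0.92). The other H4 members not called, Hist1h4b, Hist1h4c, Hist1h4d and Hist1h4h, had log2 changes of 0.14 to 0.44. Hist1h4h averaged 0.422 FPKM in controls and 0.613 in knockouts, so it passed the level of 0.5 only through the knockout libraries. Its positive change is counted here and among the 19 clustered genes.

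H2B pairs with H2A in the nucleosome core, and none of its 8 members was called by limma, nor had any an unadjusted p under 0.05. With equal totals 5 of the 8 were called higher, beside 10510 of all 15083 genes. After quantile normalization Hist3h2ba was called lower (-0.29, limma adjusted p = 0.0386), beside 2913 of all genes. In these 8, the median log2 change was 0.03 and the changes ran from -0.13 for Hist3h2ba to 0.18 for Hist1h2bc. The 3 most abundant were Hist1h2bj at 3.37 ± 0.881 and 3.35 ± 1.23 FPKM, Hist1h2bc at 2.20 ± 0.410 and 2.64 ± 0.683, and Hist1h2bk at 2.17 ± 0.336 and 2.46 ± 0.699 (SD, n = 4 each). In each of them the groups overlapped. The Hist1h2bm entry, whose transcript GENCODE lists under the name Hist1h2br, shares all of its 50-base windows with other H2B transcripts, so its value of 1.71 ± 0.568 and 1.73 ± 0.478 cannot be given to 1 gene. The clustered H3 genes Hist1h3a and Hist1h3c, which code for replication-coupled H3, had log2 changes of 0.29 and 0.28 and were not called, and the single clustered H2A member, Hist1h2ag, had 0.13.

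**Figure D4:**
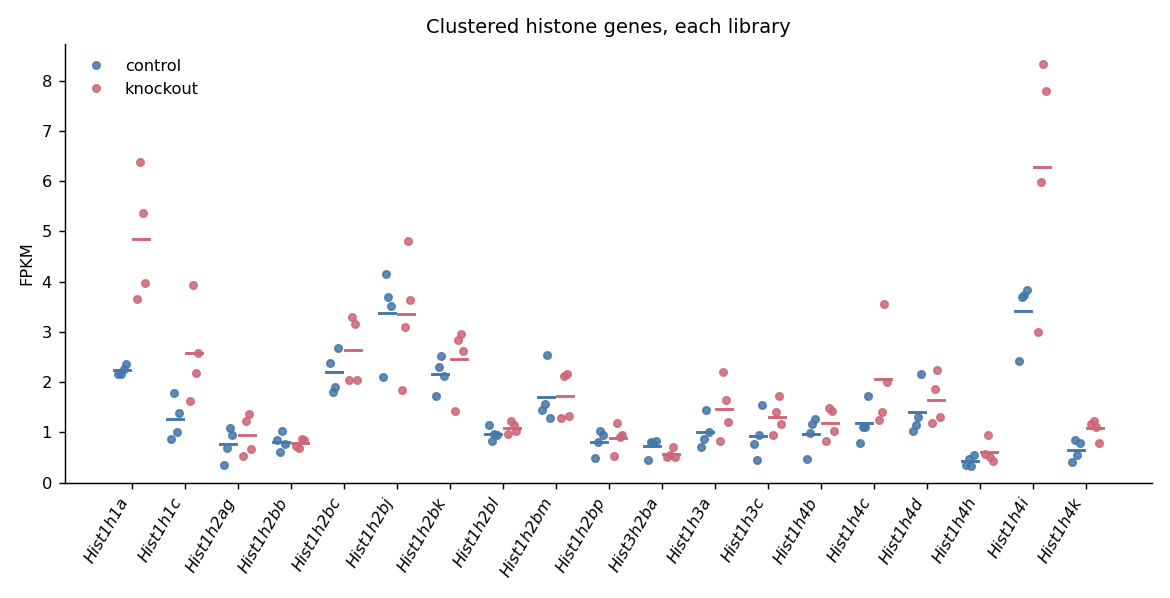
FPKM of the 19 clustered histone genes in each library, on a linear axis, with points for libraries and horizontal marks for group means (n = 4 per group). Only Hist1h1a has all knockout libraries, 3.66 to 6.39, above all controls, 2.16 to 2.37; in Hist1h4i knockout replicate 1 lies among the controls.

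Clustered genes were also divided by what their annotated transcripts hold. Of the 13 with the stem-loop 1 rose, with a median log2 change of 0.14, and of the 6 without it in the annotated sequence 2 rose, with a median of 0.17. These shares of 7.7% and 33.3% stand beside 30.8% for all genes of that level range, and the difference between the 2 sets was not tested. By position, 17 clustered members lie on chromosome 13 in 2 groups. The group from 21715763 to 22043676 held 7 genes, 1 of which rose, with a median log2 change of 0.11, and the group from 23531050 to 23764406 held 10 genes, 2 of which rose, with a median of 0.23. In 3 pairs the neighbours are divergent and less than 2000 bases apart. Hist1h2ag and Hist1h2bj, 269 bases apart, had log2 changes of 0.13 (SE 0.18) and -0.03 (SE 0.23), Hist1h3c and Hist1h2bb, 1131 apart, 0.28 (SE 0.17) and -0.02 (SE 0.09), and Hist1h3a and Hist1h1a, 1279 apart, 0.29 (SE 0.18) and 0.83 (SE 0.15). Differences within pairs were not tested.

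FPKM were also summed by class in each library, as values with no test. Clustered H1 genes summed to 3.504 ± 0.424 for controls and 7.43 ± 2.13 for knockouts, and replacement H1 genes to 37.6 ± 1.74 and 52.1 ± 10.1, both without overlap. The H3.3 genes, near-copies included, summed to 509.6 ± 49.6 and 373.2 ± 7.95. All knockout libraries, 365.5 to 380.3, lay below all controls, 459.4 to 572.3. Sums of the other classes overlapped between groups: replacement H2A at 458.7 ± 76.9 and 514.9 ± 105.9, H4 at 8.07 ± 1.997 and 12.9 ± 3.78, clustered H3 at 1.93 ± 0.625 and 2.79 ± 0.856, and H2B at 12.8 ± 1.61 and 13.5 ± 3.17. With equal totals the log2 ratio of the H3.3 sums was 0.28, against -0.45 as deposited. Of the FPKM of all 31 members, clustered genes held 2.62 ± 0.354% in controls and 3.83 ± 0.849% in knockouts (SD, n = 4 each), with overlap.

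The 9 genes of the pattern that did not reach a mean of 0.5 FPKM were H1foo, H2afb3-ps, Hist1h2aa, Hist1h2ae, Hist1h2ai, Hist1h2ak, Hist2h2bb, Hist2h2be and Hist3h2a, and they were not tested. Just inside the limit was Hist1h4h at a mean of 0.518, and just outside were Hist1h2aa at 0.495 and Hist1h2ae at 0.466. Hist1h2aa codes for TH2A, a testis-specific H2A of meiotic and later germ cells. It read 0.202, 0.459, 0.252 and 0.209 FPKM across controls and 0.591, 1.26, 0.564 and 0.429 across knockouts. Only control replicate 2 and knockout replicate 4 overlapped, and these values stand for 3.0 to 14.0 fragments per library. Hist2h2be, an H2B gene, lay between 0.176 and 0.273 FPKM across controls and between 0.469 and 0.788 across knockouts, without overlap.

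Genes that make or handle histones were called in both directions, set here beside the 25.9% of all genes that rose, the 11.8% that fell and their median of 0.10. In the list of 27 genes for histone mRNA 3′ end processing and cluster transcription, 3 rose (11.1%) and 2 fell (7.4%), with a median log2 change of 0.06. Zfp473, whose product ZFP100 belongs to the U7 processing complex, rose from 1.88 ± 0.252 to 2.73 ± 0.391 FPKM (limma adjusted p = 0.0274), and Snrpf, a core protein of spliceosomal and U7 particles, rose from 94.9 ± 11.7 to 147.1 ± 40.5 (0.0219). The call of Zfp473 was lost under 9 alternatives, among them all scalings but equal totals and the sets without control replicate 2 or 3 or knockout replicate 1, 3 or 4, and that of Snrpf without control replicate 1 (0.0593) or 2 (0.0624). Hinfp, a transcription factor of H4 promoters, fell from 31.6 ± 2.82 to 23.8 ± 0.615 (0.00436), and Cpsf1, a subunit of the cleavage factor, fell from 49.8 ± 3.38 to 38.0 ± 0.785 (0.00299), both positive with equal totals.

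Among 34 tested genes for histone chaperones and variant exchange, 4 rose (11.8%) and 6 fell (17.6%), against 25.9% and 11.8% of all genes, with a median of -0.09. Nasp, a chaperone of H3, H4 and linker histones, rose from 281.4 ± 12.8 to 376.2 ± 30.8 FPKM (limma adjusted p = 0.00703). Vps72, a subunit that carries H2A.Z in the exchange complexes, rose from 38.1 ± 2.15 to 47.8 ± 4.18 (0.0139; 0.0603 after median-ratio scaling and 0.123 with small RNA genes removed). Subunits with the ATPase activity of such complexes fell: Ep400 from 77.4 ± 13.9 to 47.2 ± 13.99 (log2 change -0.73, limma adjusted p = 0.0264) and Srcap, under ENSMUSG00000090663, from 41.5 ± 1.53 to 31.7 ± 4.80 (-0.39, 0.0172), while its second identifier, counted as a separate gene, was not called (-1.03, 0.0808). The call of Ep400 was lost without control replicate 1 (0.0709), 2 (0.0746) or 3 (0.0541) or knockout replicate 3 (0.0537) and with small RNA genes removed (0.0544), and that of Srcap without knockout replicate 4 (0.0506); with equal totals they were at -0.02 and 0.31, neither called. Cabin1, a subunit of the HIRA complex that deposits H3.3, fell from 35.4 ± 3.97 to 26.0 ± 2.62 (0.0117), and Supt6, a histone chaperone of elongating polymerase, fell from 53.0 ± 3.47 to 33.9 ± 1.58 (0.000241), both positive with equal totals. Whether these changes bear on the histone mRNAs was not tested.

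Of 30 tested genes for DNA replication and S phase, the phase in which clustered histone genes are transcribed, 7 rose (23.3%, near the 25.9% of all genes) and 0 fell by limma (11.8% of all genes), and 11 and 0 at an unadjusted p under 0.05. Their median log2 change was 0.22, against 0.10 over all genes. The count of 0 leaves out Mcm2, a subunit of the replicative helicase that was counted in the chaperone list instead. Mcm2 fell from 126.9 ± 7.46 to 104.2 ± 4.78 FPKM (log2 change -0.28, limma adjusted p = 0.0164). Prim1, the primase subunit, rose from 38.1 ± 5.87 to 79.4 ± 8.11 FPKM (limma adjusted p = 0.000195), Ccne1, cyclin E1, from 11.6 ± 1.03 to 17.7 ± 0.507 (0.000628), and Rrm2, a ribonucleotide reductase subunit, from 28.4 ± 4.80 to 39.3 ± 2.13 (0.0123; 0.125 with small RNA genes removed). Of 8 tested genes for other packaging proteins, 1 rose (12.5%) and 2 fell (25.0%), against 25.9% and 11.8% of all genes. Tnp1, the transition protein that follows histones in spermatids, rose from 3.01 ± 0.675 to 6.74 ± 2.16 FPKM (0.00553). Hmga1 fell from 219.3 ± 21.8 to 148.4 ± 12.6 (0.00244) and Hmgb1, both chromatin architectural proteins, from 279.5 ± 15.7 to 229.8 ± 12.8 (0.0275); both were positive with equal totals. The call of Hmgb1 was lost for its main entry alone (0.103) and without control replicate 3 (0.07) or 4 (0.0708) or knockout replicate 3 (0.077) or 4 (0.0853).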

How the data were processed

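RNA of 8 libraries, 4 control and 4 knockout, was analysed from a table of FPKM that the authors deposited, with 45550 transcript entries. The alignment to mm10 and the FPKM estimation used Bowtie, TopHat, Cuffdiff and Cufflinks, per the submitters' processing notes. Their versions and the annotation release do not appear in the labels. Cufflinks FPKM are estimates, so no count model was used. Entries were summed by gene identifier to 17589 genes, of which 17257 were found in GENCODE M21 (GRCm38, the build of mm10), the source of positions and transcript sequences. Promoters came from RefSeq (GRCm38.p6).

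Genes of mean FPKM of at least 0.5 were fitted on log2(FPKM + 1) by limma 3.58.1 in R 4.3.3 (lmFit, eBayes with an intensity trend) with the group as the single term. Calls were made at a Benjamini-Hochberg adjusted p under 0.05, two-sided. Log2 changes are knockout minus control on that scale, which understates the change of low genes, and folds are ratios of mean FPKM. The fit was tested on simulated data. Depth was inferred from the steps between low FPKM. Of 1860 genes, 677 to 792 per library had values up to 20 fragments and were used. Depth and a length offset were chosen so that as many of these values as possible were whole. At that choice 66.4% to 69.4% lay within 0.1 of a whole number. Chance gives 20% at a fixed setting, and the chance level of a best choice was not computed.

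The histone members and all gene lists were chosen with earlier results of these data known. Genes named are Kdm1a, all replacement variants, the 5 most abundant and all called clustered genes, members next to the level limit, and up to 4 called genes of each context list. Other clustered genes, the marker genes named, Srcap, Ep400, Mcm2 and Hist2h2be were named after their values were seen. Alternatives covered the pseudocount, level filter, scaling, trend, replicate block, main transcript entry and each library left out.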

Additional observations from a re-analysis of the deposited data

Results flagged for a closer look

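In 12 of 120 groups of 4 libraries, the gap from an extreme library to its nearest neighbour, taken over the group's range, was beyond the 95% limit of Dixon's test, which chance alone passes in about 1 of 20 groups. Knockout replicate 2, with the most entries at 0, was the extreme library in 6 of the 12, each time as the highest. It stood at 189.3 FPKM for H2afv, where the other knockouts reached 129.6, at 66.81 for H2afy, where they reached 50.85, and at 364.1 for H2afz, where they reached 261.4. The summed replacement H2A genes stood at 673.2 in it, next to 471.7, and all replacement genes at 1105.0, next to 905.1. Snrpf, of the histone mRNA processing list, stood at 207.2, next to 131.9.

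Among the controls, H1f0 was lowest in replicate 2 at 18.44 FPKM, next to 21.65. Hist1h4i and Hist3h2ba were both lowest in replicate 1, at 2.414 next to 3.703 and at 0.4605 next to 0.7883. Kdm1a was highest in replicate 3 at 91.95, next to 53.95, and Cabin1 lowest in replicate 4 at 29.5, next to 36.75. Rrm2 was highest in knockout replicate 4 at 42.42, next to 38.51.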

How the results depend on the processing

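Scaling moved the counts most. Histone genes called higher and lower numbered 5 and 3 as deposited, 22 and 0 with equal totals, 3 and 6 by median ratios, 3 and 7 by quantiles and 3 and 6 with small RNA genes removed; all genes numbered 3902 and 1773, then 10510 and 199 with equal totals, with 2739 lower by median ratios and 2913 lower by quantiles. With equal totals the sign turned for H3f3a (0.36), H3f3a-ps2 (0.30), H3f3b (0.03), H2afv (0.59), Cpsf1 (0.33), Hinfp (0.31), Supt6 (0.08), Cabin1 (0.27), Hmga1 (0.16) and Hmgb1 (0.44), and the log2 ratios of class sums became 1.74 for clustered and 1.18 for replacement H1, 0.89 for replacement H2A, 0.75 for H2B, 1.21 for clustered and 0.28 for replacement H3 and 1.31 for H4. Replacement H3 was at -0.58 after median-ratio scaling and -0.57 with small RNA genes removed. Leaving out 1 library gave 2 to 6 histone genes higher and 2 to 6 lower, 3068 to 4371 of all genes higher and 1282 to 2166 lower, and log2 ratios of 0.88 to 1.22 for clustered H1 and -0.50 to -0.39 for replacement H3. The counts fell to 2 higher without control replicate 1 or 3 or knockout replicate 3, and rose to 5 lower without control replicate 2 and 6 lower without knockout replicate 2.

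Deviations of same-numbered libraries from their group means had correlations of -0.126 to 0.221, within the -0.327 to 0.246 of differently numbered ones. The labels state no pairing, and correlations over 4 libraries per group cannot settle whether samples were paired. With the replicate number as a block, 4 histone genes were higher and 2 lower (3426 and 1536 of all genes), H3f3a (adjusted p = 0.0623), H2afz (0.107) Hist1h4k, Snrpf (0.0535) and Hmgb1 (0.104) lost their calls by limma, and Hist1h4i gained one (0.0201). The 6 members with a mean under 1 FPKM have no value at that filter, and neither has clustered H2A; the pseudocount, trend, block and quantile settings do not apply to class sums. Signs that turned in genes called under neither setting, 40 in all, were counted as unchanged. Values up to 20 fragments were whole within 0.1 in 38 of 109 cases among histone genes, and depth limits what can be said of members at such levels.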
